A study of Mus musculus with 6 samples.

Results

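Fibroblast growth factor (FGF) signalling was described through 10 genes in mouse tail keratinocytes: the ligand Fgf18, the receptors Fgfr1, Fgfr2 and Fgfr3, the feedback inhibitors Il17rd, Spry1, Spry2, Spry4 and Dusp6, and the transcription factor gene Etv5. They were taken by gene symbol from the deposited count table, where all 10 were found among 19618 genes, and all 10 passed the filter on low counts. The list was chosen by measured values, those of knockout against control in these same libraries. That difference is therefore given for these genes as a description, with values by library and no test.

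The samples were keratinocytes from tail skin of mice aged 4 months, taken after the epidermis had been scraped off the dermis. The 3 knockout mice had the genotype K14cre+/ Gpr161Flox-Homozygous, in which the keratin 14 promoter directs Cre recombinase to the basal epidermis and the cells derived from it. The 3 control mice carried floxed Gpr161 without K14cre, 1 as Gpr161Flox-Homozygous and 2 as Gpr161Flox-Heterozygous, so an effect of Cre itself has no control of its own. Gpr161 is a ciliary receptor known to restrain Hedgehog signalling, and the comparison asks what changes in keratinocytes when it is deleted. Libraries are called by the tags of their table columns. Knockout values are always listed in the order DE679, DE685, DE688, and control values in the order DE680, DE684, DE689. The columns name the group but no sample title, so the homozygous control cannot be picked out.

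Libraries held 17157864 to 25344399 estimated counts, with DE685 the smallest. Markers of the labelled cell type were abundant. Basal keratinocyte genes summed to 26029 to 33563 CPM (counts scaled to a common library size with TMM factors) over the 6 libraries. Krt5 (11196 to 15700 CPM) and Krt14 (8847 to 11470 CPM) made up most of that sum. Markers of other cell types were present as well and are given below. The targeted gene, Gpr161, had 26.8, 33.6 and 25.9 CPM in the knockout libraries and 30.2, 32.2 and 31.9 in the control libraries, which overlapped. Which exons are floxed is not given in the sources used here, so the level of the whole gene does not check the deletion. The Hedgehog target Gli1 had 66.7 to 74.5 CPM in the knockout and 8.25 to 9.96 in the control, and Ptch1 95.4 to 122 against 31.0 to 40.4. Y-linked transcripts were found in DE685 and DE684, 1 library in each group. Nothing in the labels says how the animals relate to each other, so p-values measure only the spread between these samples. All means are over 3 libraries in each group, with their SD.

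FGFs are secreted ligands that bind receptor tyrosine kinases together with heparan sulphate chains, and the receptors signal through Ras, MAP kinases and ERK. ERK activity switches on ETS transcription factors and a set of inhibitors that damp the same pathway: Sprouty proteins act upstream on Ras activation, Dusp6 dephosphorylates ERK, and Il17rd, also called Sef, is a membrane protein of the interleukin 17 receptor family that restrains FGF receptor signalling. In skin, FGF receptors in keratinocytes are known for roles in barrier upkeep, wound repair and the hair cycle, and Fgf18 is known as a signal of resting hair follicles.

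Among the receptors, Fgfr1 was higher in every knockout library, while Fgfr2 and Fgfr3 overlapped between groups. Among the inhibitors, the genes went opposite ways: Il17rd was higher in all 3 knockout libraries, Spry1 and Spry2 were lower in all 3, and Spry4 and Dusp6 overlapped between groups. So 4 of the 10 genes had groups that did not overlap in CPM, 2 with the knockout above and 2 with it below. Of all 15422 genes tested, 25.6% had groups that did not overlap, 12.8% with the knockout above and 12.8% with it below. In the edgeR quasi-likelihood fit across all genes with Benjamini-Hochberg adjustment, 1 of the 10 (Il17rd, higher) and 0 in the lower direction had an adjusted p under 0.05, and without any 1 library it was 0 of 10. Of all genes 1.60% did, 1.24% higher and 0.357% lower in the knockout. These counts are no test of the 10 genes, which were picked with this contrast known, and nothing is read from them. In bulk samples a change in the make-up of the cells and a change in RNA per cell cannot be told apart.

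**Figure D1:**
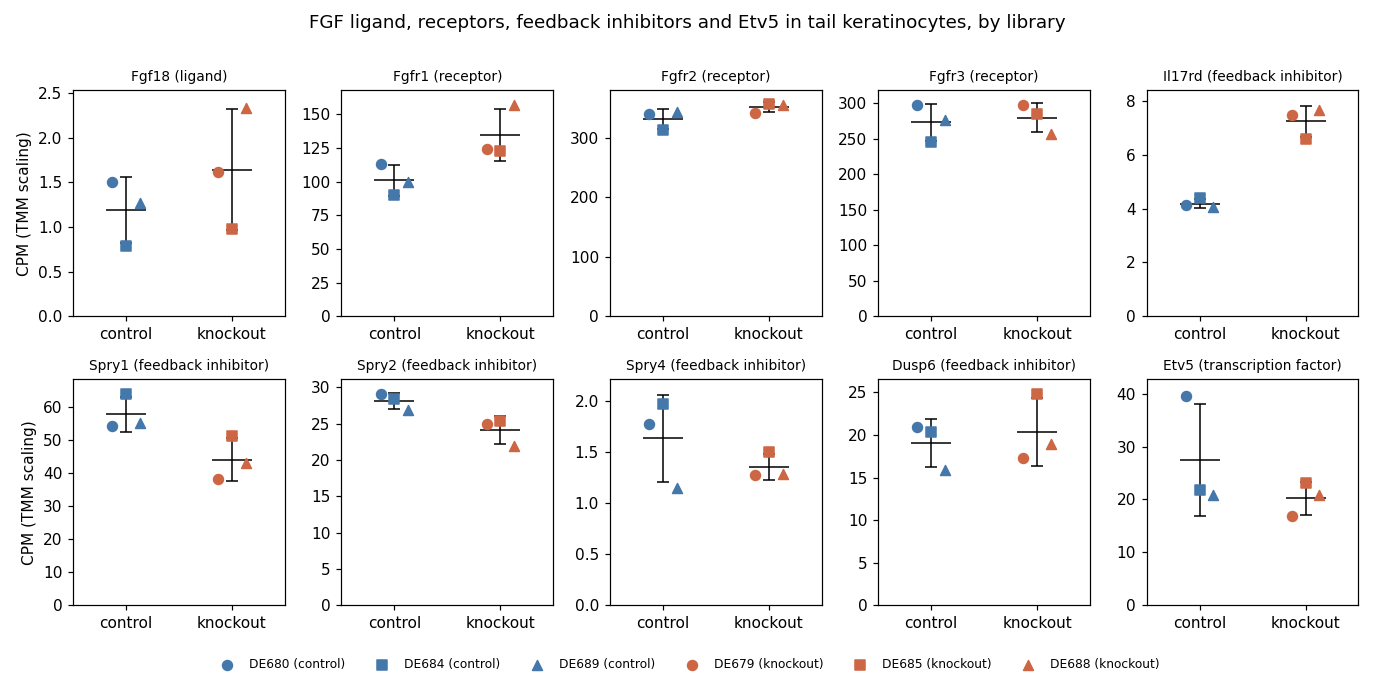
Level of each of the 10 genes in CPM with TMM scaling (y axis, from 0), by group (x axis). Points are libraries, whose shapes name the library and pair nothing, and lines with bars are the mean and SD of 3 libraries. Il17rd and Fgfr1 lie higher in all knockout libraries, Spry1 and Spry2 lower in all, and the other 6 genes overlap.

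Fgfr2, whose epithelial splice form is the receptor of keratinocytes for FGF7 and FGF10, was the steadiest of the receptors. It had 343, 358 and 356 CPM in the knockout libraries, with 341, 313 and 343 in the control libraries. The groups overlapped, with DE684 the lowest library and the other 5 within a narrow band. Knockout libraries averaged 352 ± 8.16 CPM and control libraries 333 ± 16.8, a log2 fold change of 0.08 (SE 0.06). Splice forms were not analysed here, so the form that keratinocytes use cannot be separated from others in these counts.

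Fgfr3, a receptor of the epidermis that is known for activating mutations in benign skin lesions, also overlapped between groups. Its levels were 298, 285 and 257 CPM in the knockout libraries against 298, 246 and 276 in the controls. The log2 fold change was 0.04 (SE 0.09), and it took the other sign without DE679 or without DE684 (−0.0066 and −0.037). Its direction therefore rests on which libraries are used.

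Fgfr1, which is found in epithelial and mesenchymal cells alike, set the groups apart. It had 124, 123 and 156 CPM in the knockout libraries, with 113, 90.1 and 99.4 in the control libraries. Every knockout library was above every control library, and the lowest knockout value exceeded the highest control value by 8.36%. The means were 134 ± 19.1 and 101 ± 11.6 CPM, a fold of 1.33 and a log2 fold change of 0.41 (SE 0.12). DE688 stood highest by a margin, and without it the log2 fold change was 0.29. The gap was as large in the pair of libraries with Y-linked transcripts, 0.45 on the log2 scale, as in the 2 libraries per group without them, 0.40.

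Fgfr1 made up more of the receptor RNA in the knockout. Shares and ratios of Fgfr1 restate the difference just given and add no support to it. Within a library, a ratio of genes does not depend on how libraries are scaled to each other. There were 36.2, 34.3 and 44.0 Fgfr1 counts per 100 Fgfr2 counts in the knockout libraries, and 33.2, 28.8 and 28.9 in the control libraries. The knockout ratios were all above the control ratios, though DE685 and DE680 lay close together. Per kilobase of exon, Fgfr1 was 14.3% to 18.4% of the sum of the 3 receptors in knockout libraries and 12.3% to 13.3% in control libraries. Fgfr4, the remaining FGF receptor kinase, was too low for the filter: it had 6, 11 and 15 counts in knockout libraries DE679, DE685 and DE688 and 0, 5 and 5 in the control.

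Fgfr1 is also a gene of dermal fibroblasts, so fibroblast markers were read in the same libraries. Of 11 such genes, 10 were in the table and 8 were tested. The 10 summed to 228 to 267 CPM in the knockout and 118 to 153 in the control, a difference carried mainly by Dcn with 112 to 123 against 20.8 to 40.6 CPM. Of the 8, 2 (Dcn and Fbln1) were higher at an edgeR adjusted p under 0.05, and 3 lay wholly above the control, where 1.24% and 12.8% of all genes did, while the collagen genes Col1a1, Col1a2 and Col3a1 each had at most 14.1 CPM in any library with overlapping groups. DESeq2 called 3 of the 8 fibroblast genes tested (6.05% of all genes). At an unadjusted edgeR p under 0.05, 3 of them were higher (9.90% of all genes). Lum, a defining fibroblast gene, had 2 to 7 counts in each library, and Mfap5 was not analysed here, while no other marker of the list was at 0 in any library. Hair follicle stem cell markers summed to 2269 to 2671 CPM in the knockout and 1704 to 1981 in the control. Krt15 made up most of this sum, with means of 1881 and 1443 CPM. Called by edgeR were 2 of 9, both higher (Nfatc1 and Foxc1), beside the same 1.24% of all genes. DESeq2 called 7 of the 9, where it called 6.05% of all genes. At an unadjusted edgeR p under 0.05, 7 of the 9 were higher, where 9.90% of all genes were. Of those 9 genes, 6 lay wholly above the control, beside the same 12.8% of all genes. Lgr5, Tcf7l1 and Cd34 overlapped between groups, and Cd34 had the lower mean in the knockout (log2 fold change −0.29). The part that either cell population has in the Fgfr1 and Il17rd values was not tested.

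The ligand Fgf18 was close to the lower limit of what these libraries measure. It had 38, 17 and 60 counts in the knockout libraries against 34, 18 and 32 in the controls. In CPM these are 1.61, 0.982 and 2.33 against 1.51, 0.790 and 1.27, and the groups overlapped. The lowest value of each group came from the library with Y-linked transcripts, and the highest of all from DE688. The log2 fold change was 0.48 with an SE of 0.39, and it ranged from 0.14 without DE688 to 0.73 without DE685. Immune cell markers, summed over 10 genes, were also lowest in DE684 and DE685 (37.6 and 69.5 CPM) and reached 142 CPM in the control and 167 CPM in the knockout. Their part in the Fgf18 values was not tested.

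Promoter sequences are shown for the 3 inhibitor genes whose groups did not overlap, since ETS factors such as Etv5 are known to act at promoters of ERK target genes. RefSeq promoter windows on GRCm38.p6 were at hand for 8 of the 10 genes, in 10 windows. Printed are the bases before the start of Il17rd (chr14:27038751-27038940, plus strand), Spry1 (chr3:37639697-37639946, plus strand) and Spry2 (chr14:105896820-105897069, minus strand), 5′ to 3′, with 60 bases at the 3′ end of the Il17rd window left out because they lie in an annotated exon. Capitals mark GGAA, the ETS core, and its reverse complement.
Il17rd: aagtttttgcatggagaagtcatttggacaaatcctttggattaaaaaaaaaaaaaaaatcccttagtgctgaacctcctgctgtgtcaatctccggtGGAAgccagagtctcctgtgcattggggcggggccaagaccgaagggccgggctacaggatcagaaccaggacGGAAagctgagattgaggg
Spry1: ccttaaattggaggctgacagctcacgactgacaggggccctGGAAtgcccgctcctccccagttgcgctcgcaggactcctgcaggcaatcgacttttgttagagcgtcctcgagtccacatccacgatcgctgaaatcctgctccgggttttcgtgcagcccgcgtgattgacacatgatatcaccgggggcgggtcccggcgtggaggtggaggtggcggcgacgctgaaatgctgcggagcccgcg
Spry2: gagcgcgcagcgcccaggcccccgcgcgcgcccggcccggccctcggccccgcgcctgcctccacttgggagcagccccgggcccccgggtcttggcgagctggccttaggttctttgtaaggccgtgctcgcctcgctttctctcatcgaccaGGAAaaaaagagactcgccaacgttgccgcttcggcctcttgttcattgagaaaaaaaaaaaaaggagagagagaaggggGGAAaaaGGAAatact
In the printed bases the core occurs 2 times for Il17rd (190 bases), 1 time for Spry1 and 3 times for Spry2 (250 bases each). The full Il17rd window of 250 bases, with the exon bases left out above, holds 4. At least 1 core is in 93.4% of all 32851 promoter windows of 250 bases before the start, so it does not mark these genes. The longer ETS motif CCGGAAG, which contains the core, is in 6.91% of all windows, the GLI motif GACCACCCA in 0.225%, its form with 1 free base GACCNCCCA in 0.868%, the cAMP element TGACGTCA in 1.55% and the AP-1 motif TGANTCA in 6.75%, on either strand. Of the 10 windows of these genes, 0 held any of these 5 motifs, which says only that those letters are not in the windows searched. The GC box GGGCGG was in 6 of the 10 windows and in 32.7% of all.

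Il17rd had the largest difference of the 10 genes. It had 176, 114 and 197 counts in the knockout libraries, with 93, 100 and 102 in the control libraries. In CPM it had 7.46, 6.58 and 7.66 in the knockout and 4.13, 4.39 and 4.05 in the control. The control libraries lay within 1.08-fold of each other, and the lowest knockout library was 50.1% above the highest control library. The means were 7.24 ± 0.573 and 4.19 ± 0.178 CPM, a fold of 1.73 and a log2 fold change of 0.79 (SE 0.15). Without any 1 library the log2 fold change stayed between 0.75 and 0.85.

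The knockout library with Y-linked transcripts was above the control library with them by 0.59 on the log2 scale, and the 2 knockout libraries without them were above their 2 controls by 0.89. The former compares 1 library with 1. Split in this way, 7 of the 10 genes kept 1 sign, while Fgfr3 (0.21 with and −0.05 without Y-linked transcripts), Dusp6 (0.29 and −0.02) and Etv5 (0.08 and −0.68) did not. Among the 13642 other tested genes with a mean of at least 1 CPM, the profiles most like that of Il17rd over the 6 libraries were those of Galk1, B930095G15Rik and Cyb5rl. Their centred log2 CPM differed from that of Il17rd by a root mean square of 0.0629, 0.0650 and 0.0782. Galk1, which encodes galactokinase, had 6.12 to 7.29 CPM in the knockout and 3.82 to 4.20 in the control. For Fgfr2, the nearest profiles were Rabep1, Cenpx and Psph, at 0.0157, 0.0178 and 0.0213.

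Sprouty genes are the best known inhibitors induced by FGF, and the 3 measured here all had lower means in the knockout. Spry1 had 38.2, 51.1 and 43.1 CPM in the knockout libraries against 54.3, 63.9 and 55.3 in the controls. The groups did not overlap, with the lowest control library 6.31% above the highest knockout library. Each group had its highest value in the library with Y-linked transcripts, and comparing like with like gave log2 differences of −0.32 with and −0.43 without them. The means were 44.1 ± 6.50 and 57.9 ± 5.26 CPM, a log2 fold change of −0.39 (SE 0.12).

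Spry2 had 24.98, 25.4 and 21.9 CPM in the knockout and 29.1, 28.4 and 26.9 in the control. The knockout libraries were again all below the control libraries, but the gap was 5.66% and the log2 fold change only −0.22 (SE 0.09). Spry4 was scarce, with 26 to 33 counts in knockout libraries and 29 to 45 in control libraries. Its values of 1.27, 1.502 and 1.28 CPM overlapped with 1.77, 1.97 and 1.15 CPM because of the low control library DE689. Its log2 fold change was −0.27 (SE 0.29), and without DE689 it was −0.47. Markers of differentiated keratinocytes were lower in mean in the knockout as well, in 8 of 8 genes. Of these, 0 were called by edgeR, 4 were lower at an unadjusted p under 0.05, and 3 were called by DESeq2. Over all genes the shares were 1.60% by edgeR, 9.10% lower at an unadjusted p under 0.05, and 6.05% by DESeq2. The 8 genes summed to 18116 to 25619 CPM in the knockout and 20750 to 35173 in the control. Of the 8, 4 lay wholly below the control, where 12.8% of all genes did. Basal keratinocyte markers summed to 29508 to 33563 CPM in the knockout and 26029 to 30996 in the control. Of the 7, 3 (Krt5, Trp63 and Lamb3) lay wholly above the control, where 12.8% of all genes did. Krt14, Col17a1, Itga6 and Itgb4 overlapped, with log2 fold changes below 0 for Itga6 and Itgb4 (−0.11 and −0.04). Called by edgeR were 0 of the 7 (1.60% of all genes), and by DESeq2 2 (6.05%). At an unadjusted p under 0.05, 2 were higher (9.90% of all genes). The part of either marker list in the Sprouty values was not tested.

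Dusp6, the ERK phosphatase that is often read as a gauge of ERK output, overlapped between groups. It had 17.3, 24.8 and 18.9 CPM in the knockout and 20.9, 20.4 and 15.8 in the control. The highest library was DE685 and the lowest DE689, and the log2 fold change of 0.09 (SE 0.16) became −0.075 without DE685 and −0.024 without DE689. Etv5, an ETS transcription factor that FGF signalling is known to induce, was marked by 1 library. It had 16.9, 23.0 and 20.8 CPM in the knockout libraries, and 39.6, 21.8 and 20.8 in the controls. DE680 had 1.90 times the level of the lowest control, and without it the log2 fold change went from −0.44 (SE 0.25) to −0.07. Etv4, its close relative, is not among the 10 genes and is named after its values were seen. Etv4 was also highest in DE680 with 33.0 CPM, against 14.2 to 25.6 in the other 5 libraries.

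**Figure D2:**
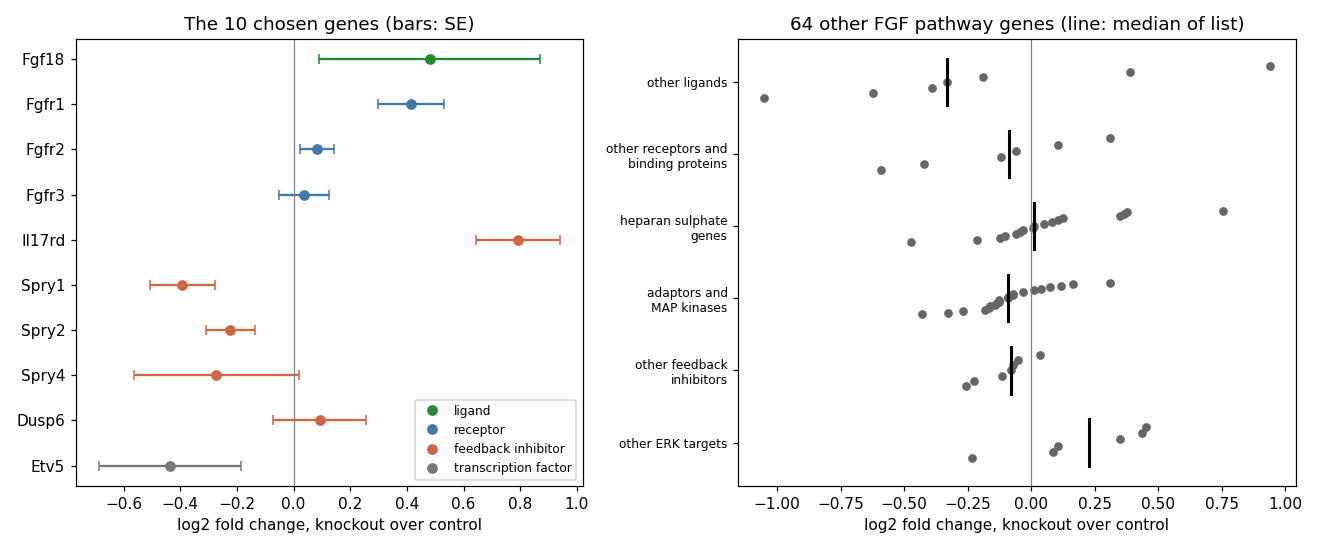
Log2 fold change of knockout over control (x axis) for the 10 genes on the left, with bars of 1 SE and colours for their role, and for 64 other FGF pathway genes on the right, 1 point each, with a line at the median of each list. Il17rd lies at 0.79 and Spry1 at −0.39 among the inhibitors, and the medians of the other lists run from −0.33 to 0.23.

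Il17rd was also set against the Sprouty genes within libraries. There were 19.5, 12.9 and 17.8 Il17rd counts per 100 Spry1 counts in the knockout libraries and 7.59, 6.86 and 7.31 in the control libraries. The control ratios were nearly equal, and the lowest knockout ratio lay far above all of them. Il17rd was higher and Spry1 and Spry2 lower in every knockout library. Ratios of these genes therefore restate those differences and add no support to them. The mean ratios were 16.7 ± 3.44 and 7.26 ± 0.367. Against Spry2, there were 25.9 to 34.9 Il17rd counts per 100 in knockout libraries and 14.2 to 15.4 in control libraries. Spry1 per 100 Fgfr2 counts was 11.2, 14.3 and 12.1 in the knockout and 15.9, 20.4 and 16.1 in the control.

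The difference between inhibitors and receptors, taken as sets, did not separate knockout from control. The mean log2(CPM + 1) of the 5 inhibitors minus that of the 3 receptors was −4.18, −3.99 and −4.21 in DE679, DE685 and DE688. It was −4.03, −3.72 and −4.10 in the control, so the groups overlapped. The difference between groups was −0.18, and without DE684 it shrank to −0.062. The inhibitor means were 3.76 ± 0.0981 in the knockout and 3.76 ± 0.123 in the control. That mean holds Il17rd above its control level and Spry1 and Spry2 below theirs. Mean receptor levels were 7.89 ± 0.0358 and 7.71 ± 0.122, with no overlap, Fgfr1 being the receptor with a gap.

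**Figure D3:**
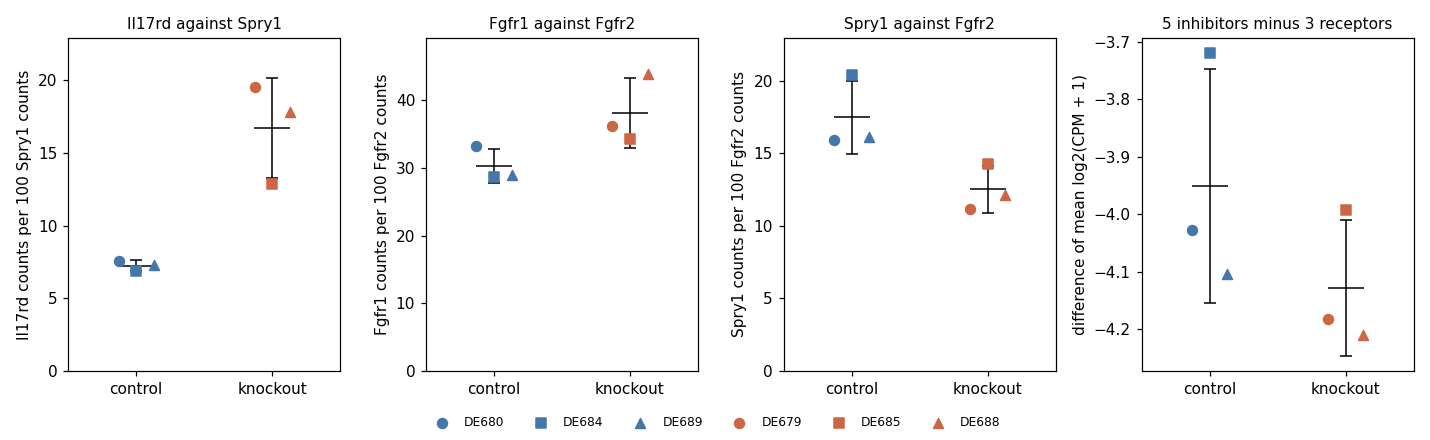
Ratios within a library for Il17rd over Spry1, Fgfr1 over Fgfr2 and Spry1 over Fgfr2 (y axes, counts per 100 counts, from 0), and the mean log2(CPM + 1) of 5 inhibitors minus that of 3 receptors (y axis not from 0), by group. Points are libraries, lines and bars are mean and SD. The Il17rd to Spry1 ratio is 6.86 to 7.59 in the control and 12.9 to 19.5 in the knockout, while the last panel overlaps. The genes were picked with this contrast known, so the gaps are a description.

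Levels can be compared between genes only per length, here as CPM per kilobase of annotated exon. In the control, Fgfr3 (38.2 ± 3.69) and Fgfr2 (32.2 ± 1.63) were the most abundant of the 10 genes, and their ranges did not overlap. Spry1 (19.9 ± 1.81), Spry2 (13.5 ± 0.553) and Fgfr1 (10.2, between 9.12 and 11.5) followed, each range clear of the next. Etv5 (6.67 ± 2.57) could not be ordered against Fgfr1 above it or Dusp6 (6.08 ± 0.894) below it, since the ranges overlapped. Fgf18 (1.00 ± 0.308) came next, above Il17rd (0.381 ± 0.0162) and Spry4 (0.343 ± 0.0904), which overlapped. In the knockout, Spry1 at 15.2 ± 2.24 and Fgfr1 at 13.6 ± 1.94 overlapped, so the step between them in the control was no longer seen. Fgfr1 (12.4 to 15.8) lay wholly above Spry2 (10.5 to 12.2) in the knockout, the reverse of their order in the control. Il17rd (0.599 to 0.698) lay wholly above Spry4 (0.268 to 0.316) there. Exons that no transcript here uses would lower a gene's value on this scale, and Il17rd and Fgfr2 have the longest exon sums, 10985 and 10328 bases.

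**Figure D4:**
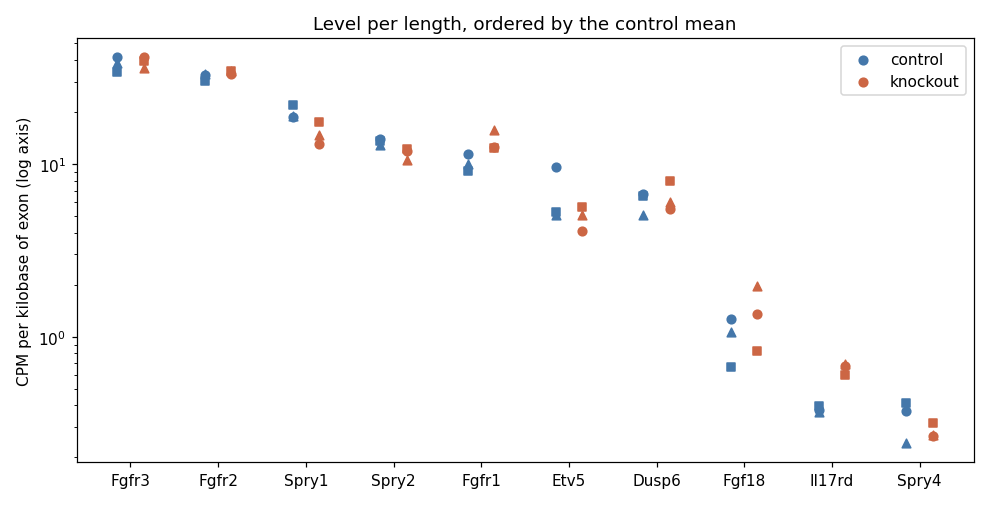
Level of the 10 genes in CPM per kilobase of exon (y axis, log scale), ordered by the control mean (x axis). Points are libraries, blue for control and orange for knockout, and shapes name libraries as in the plot of CPM by library. Fgfr3 and Fgfr2 lie near 38.2 and 32.2 in the control and Il17rd and Spry4 lie lowest, near 0.381 and 0.343.

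By position on GRCm38, Il17rd spans chromosome 14, 27038941 to 27107286 (plus strand) and Fgfr1 chromosome 8, 25513654 to 25575718 (plus). Spry1 spans chromosome 3, 37639947 to 37644598 (plus), and Spry2 chromosome 14, 105891947 to 105896819 (minus). Fgfr2 lies on chromosome 7, 130162451 to 133123350 (minus), and Fgfr3 on chromosome 5, 33721674 to 33737068 (plus). The RefSeq promoter window of Fgfr2 begins at 130266759, so the annotated span of Fgfr2 reaches far upstream of that window. Fgf18 is on chromosome 11, 33117430 to 33147400 (minus), Dusp6 on chromosome 10, 99263231 to 99267489 (plus), and Etv5 on chromosome 16, 22381309 to 22439719 (minus). Whether counting used the strand is not given in the sources used here. Exons of Spry1 share 710 bases with Gm42922 on the opposite strand, which had 16.1 to 26.1 counts in any library against 885 to 1457 for Spry1. Exons of Fgfr3 share 998 bases with G630022F23Rik on the opposite strand, which had 8.66 to 31.1 counts. Fgfr1 shares 164 bases with the antisense gene Gm16159, whose counts were not analysed here. Fgfr2 shares 314 bases with Ctbp2 on its own strand, which had 520 to 846 counts against 6193 to 9146 for Fgfr2.

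The rest of the pathway was read from 83 further genes in 6 lists, 68 of them in the table and 64 tested. Of these 64 genes, 0 had an edgeR adjusted p under 0.05, where 1.60% of all genes did. At an unadjusted p under 0.05 there were 16 of the 64, 5 higher and 11 lower, where 19.0% of all genes passed (9.90% higher and 9.10% lower). Their median log2 fold change was −0.07 against −0.0036 over all genes tested. Groups did not overlap for 26.6% of the 64 and for 25.6% of all genes. The DESeq2 Wald test called 5, the proteoglycan gene Gpc4 higher (0.35), the heparan sulphatase gene Sulf2 lower (−0.47) and 3 adaptor and MAP kinase genes lower, where it called 6.05% of all genes. Sulf2 and Gpc4 are named after their values were seen. Sulf2 was also the 1 gene called by edgeR with a covariate for Y-linked transcripts (2.65% of all genes) and without DE689 (0.758% of all genes).

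Of the 7 other ligands tested, none passed, with a median log2 fold change of −0.33. The 3 most abundant were Fgf1, Fgf22 and Fgf13. Fgf1, a ligand that binds all FGF receptors, had 20.99, 24.1 and 26.3 CPM in the knockout and 19.9, 15.4 and 19.2 in the control, with no overlap, at 0.39 on the log2 scale (SE 0.13) and an edgeR adjusted p of 0.169. Fgf22, a ligand of the FGF7 subfamily, had 4.16, 4.39 and 5.99 CPM against 7.14, 6.62 and 8.69, below the control in every library, at −0.62 (SE 0.20, edgeR adjusted p 0.158). Exons of Fgf22 share 82 bases with Rnf126 on the opposite strand. Neither passed the threshold across all genes. Fgf13, an intracellular member of the family that is not secreted, had 2.66 to 3.82 CPM against 2.94 to 4.84. Per kilobase, Fgf22 and Fgf1 were at 3.33 and 3.32 in the control, above Fgf18 at 1.00 in every control library.

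Among 6 other receptors and binding proteins tested, none passed and the median was −0.09. In the 17 heparan sulphate genes, the proteoglycans and enzymes that make or trim the chains FGFs bind to, none passed and the median was 0.0099. For the 21 adaptor and MAP kinase genes the median was −0.09, none passed, and 7 lay wholly below the control and 1 above, where 12.8% of all genes did so in each direction. Of 7 other feedback inhibitors (Spred genes and further dual-specificity phosphatases), none passed and the range was −0.26 to 0.03. Of 6 other ERK target genes, none passed, with a median of 0.23 and no gene whose groups did not overlap. Egr1 and Fos, immediate early genes of that list named after their values were seen, were highest in DE688 with 186 and 112 CPM, the library that was also highest for Fgfr1, Fgf18 and Il17rd.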

How the data were processed

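Polyadenylated RNA from tail keratinocytes of 3 knockout and 3 control mice had been sequenced from stranded libraries, per the labels' protocols. The submitters' processing notes name bcl2fastq 2.20, cutadapt 1.18, STAR 2.7.0f and Partek and the build mm10. The counting tool, strand setting and annotation are not given in the sources used here. The authors deposited estimated counts per gene, partly fractional, and a normalized signal proportional to them. Per the file headers, alignments were sorted and duplicates marked.

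Estimated counts were rounded, the test having been laid out for counts. Genes passing filterByExpr were fitted with edgeR 4.0.16 (TMM, glmQLFit, glmQLFTest, group as the only term) in R 4.3.3, with Benjamini-Hochberg adjustment over 15422 genes. The fit was checked on simulated data. The 10 genes and all lists were chosen with earlier results of these data known. Named besides the 10 were Gli1, Ptch1, pathway genes under 0.05 (up to 4 a list), the 3 most abundant other ligands, and the 3 profiles nearest to Il17rd and Fgfr2. Marker lists covered basal and differentiated keratinocytes, follicle stem cells, fibroblasts, endothelial cells, immune cells, melanocytes and skeletal muscle. Alternatives used DESeq2 1.42.0, limma 3.58.1 on log2 of the deposited values plus 1, RLE factors, other filters, a sex covariate (from Y-linked counts) and each library left out. Positions and exon lengths came from GENCODE M21 (GRCm38), which placed all 10 genes as the table does. No library repeated another of its group (chi-square per degree of freedom 12.2 to 39.9 over genes). With 3 against 3 an exact permutation test cannot go below 0.1. Counting floors and totals cover counting error only.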

Additional observations from a re-analysis of the deposited data

How the results depend on the processing

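No paired analysis was possible because the columns carry no replicate numbers. Over all genes 247 passed, against 879 with DESeq2 (905 adjusted p-values NA), 409 with the sex covariate and 69 to 121 with 1 library left out, each of the 6 lowering it by over 1.5 times. Of the 64 other pathway genes 0 passed, against 5 with DESeq2, 1 with the sex covariate and 0 to 1 with 1 library left out. The 1 was Sulf2 both times, the latter without DE689. The cause of these falls and rises was not tested. Il17rd had an adjusted p under 0.05 in 4 of 12 alternatives (0.00453 to 0.181), with a log2 fold change of 0.66 to 0.85, as a description of a gene picked from this contrast. DESeq2 put 3 of the chosen genes under an adjusted p of 0.05 (Il17rd, Spry1 and Fgfr1), where 6.05% of all genes were. With the sex covariate Spry1 was under 0.05, where 2.65% of all genes were. Spry1 and Fgfr1 were also picked with this contrast known, so their values are a description and no test. The sign turned for Fgfr3 without DE679 (−0.0066) and without DE684 (−0.037), with 0.10 at most, and for Dusp6 without DE685 (−0.075) and without DE689 (−0.024), with 0.20 at most. The difference of inhibitors against receptors stayed between −0.25 and −0.062. Counts were lowest for Fgf18, Spry4 and Fgfr4, and depth sets a floor: 3 counts are 0.117 to 0.173 CPM.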

Other observations

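Il17rd belongs by sequence to the interleukin 17 receptors, and 4 others of that family were measured. Il17ra, the subunit shared by several of these receptors, had 28.7 to 31.1 CPM in the knockout and 29.3 to 33.9 in the control. Il17rb and Il17rc overlapped between groups as well, at log2 fold changes of 0.03 (SE 0.14) and −0.01 (SE 0.10). Il17re, a receptor subunit for interleukin 17C known from epithelial cells, had 48.6, 49.6 and 48.9 CPM in the knockout and 40.9, 37.6 and 42.2 in the control. Its groups did not overlap, at 0.28 (SE 0.07), short of the threshold in edgeR (adjusted p 0.094), where 1.60% of all genes passed. None of the 4 passed, and 1 had an unadjusted p under 0.05, where 19.0% of all genes did.

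Melanocyte markers were higher in mean in all 8 genes, with a median of 0.53. Called by edgeR were 0 of the 8 (1.60% of all genes), and by DESeq2 1 (6.05%). At an unadjusted p under 0.05, 3 were higher (9.90% of all genes). The summed level of the 8 melanocyte markers was 87.8 to 128 CPM in the knockout and 61.0 to 88.3 in the control. Endothelial markers were scarce, with 3.29 to 4.43 summed CPM against 4.72 to 7.41, and of skeletal muscle markers 2 were tested, at −0.10 and −0.11. How these cell populations bear on the FGF genes was not tested.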
